A study of Mus musculus with 4 samples.

Results

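The mitochondrial carrier genes were followed in RNA from the livers of male and female mice. Members were the genes whose symbol starts with Slc25a and a digit, leaving out Slc25a1, Slc25a15 and Slc25a17, together with the uncoupling protein genes Ucp1, Ucp2 and Ucp3. This gave 44 of the 21827 entries of the expression table. The mice were of the outbred CD-1 stock, untreated and 8 weeks old, and sex was the only labelled difference between the groups. Each sex was represented by 12 animals, whose RNA was combined into 2 pools of 6 livers, and poly-A-enriched RNA of the 4 pools was sequenced with strand information kept. The table holds 1 level per gene and sex, so no spread between pools can be given, and the fold and adjusted p of each gene are taken from the authors' deposited table. In whole liver, fewer cells of a type and less RNA per cell cannot be told apart.

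Mitochondrial carriers are small proteins of the inner mitochondrial membrane, built from repeats of 1 ancestral unit. Most exchange a metabolite of the matrix for one of the cytosol: nucleotides, phosphate, carboxylates, amino acids, acylcarnitines, cofactors or iron. In hepatocytes they link the cytosolic and matrix parts of the urea cycle, of gluconeogenesis, of fatty acid oxidation and of the redox shuttles. The uncoupling proteins belong to the same family, and Ucp1 of brown fat carries protons back into the matrix and so releases heat.

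Levels are given as log2 RPKM, a read count scaled by transcript length and library size, which allows genes to be compared per length. The smallest level of a gene corresponds to about 1 read added to it, and on that reading the table implies 11239946 reads for male and 14717080 for female liver, 1.31 times as many. Among the carrier genes, 39 could be compared between the sexes by the table's ratio, of 13762 such genes in the whole table. Ucp1 and Ucp3 lay at the floor in both sexes. Slc25a31, Slc25a41 and Slc25a43 rose above the floor in 1 sex, and their ratio is set to 1 in the table. Hepatocyte markers were abundant in both sexes, with log2 RPKM from 10.39 to 14.83 in male and from 10.68 to 15.52 in female liver over 5 of 5 genes.

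The family spanned from Slc25a39, above 98.0% of all entries with a level in each sex, to genes without a read. The authors' mark for liver expression, log2 RPKM 1 or more in male or in female liver, was reached by 32 of the 44 genes (72.7%), against 9740 of all entries (44.6%). The most abundant were Slc25a39, which is needed to import glutathione, with log2 RPKM of 7.09 in male and 7.05 in female liver, and Slc25a3, the phosphate carrier that feeds ATP synthase, with 6.91 and 7.07. Next came Slc25a23, an exchanger of ATP-Mg for phosphate, with 6.62 and 6.44, and Slc25a13, the aspartate-glutamate carrier citrin, with 6.52 and 6.34. Slc25a47, a carrier described as enriched in liver, followed with 6.40 in male and 6.16 in female liver. These 5 genes made up 53.6% of the summed RPKM of the family in male and 51.9% in female liver. The sum itself came to 991 RPKM in male and 973 RPKM in female liver, a ratio of 1.02. The first 5 places were held by the same 5 genes in both sexes, with Slc25a39 first in male and Slc25a3 first in female liver.

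**Figure D1:**
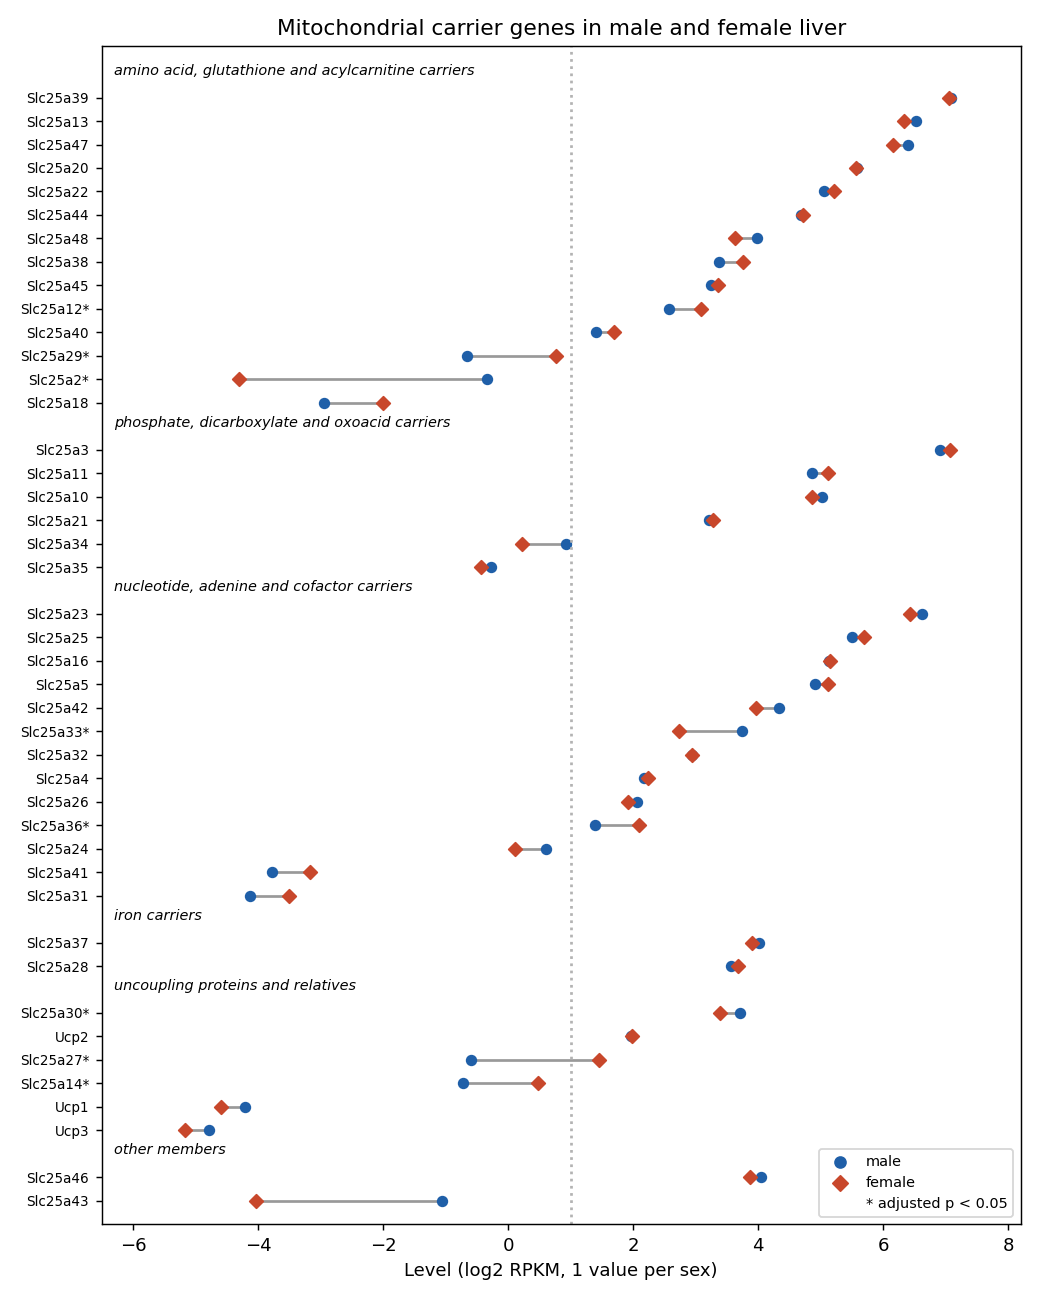
Level of the carrier genes reported by name (log2 RPKM, horizontal axis) in male (circles) and female (diamonds) liver, 1 value per sex over 2 pools, ordered by mean level within groups of related substrates. Asterisks mark the 8 genes with an adjusted p under 0.05, and the dotted line stands at log2 RPKM 1; the widest gap among genes with a ratio belongs to Slc25a2, from -4.31 in female to -0.34 in male liver.

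Most carrier genes were not called as different between the sexes, and the abundant ones had ratios near 1. With the threshold set at 0.05 for the adjusted p, 8 of 39 carrier genes differed (20.5%), beside a background of 17.4% over all compared genes, so the family was called about as often as other genes. Slc25a2, Slc25a33 and Slc25a30 were higher in male liver, 7.69% of the family beside 7.21% of all compared genes. Slc25a27, Slc25a29, Slc25a14, Slc25a36 and Slc25a12 were higher in female liver, 12.8% beside 10.2%. The median log2 ratio of male over female was -0.01 for the carriers and -0.02 for all compared genes. Among the 32 liver-expressed carriers, 5 were called (15.6%, 2 in favour of male and 3 of female liver), beside 17.2% of 9735 genes at such levels (8.0% male-higher and 9.19% female-higher). Slc25a27 is among these 32 through its female level alone, so this count is a description and no support. A stricter adjusted p, under 0.01, left 5 of 39 (12.8%), 2 male-higher and 3 female-higher, beside 10.2% of all compared genes, 4.16% and 6.05% by direction. With a fold of at least 1.5 required as well at 0.05, the count was 6 (15.4%), 2 male-higher and 4 female-higher, beside 13.4%, 5.06% and 8.31%. The 27 liver-expressed carriers that were not called had log2 ratios between -0.33 and 0.36. None of the 10 most abundant members was among the called genes.

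**Figure D2:**
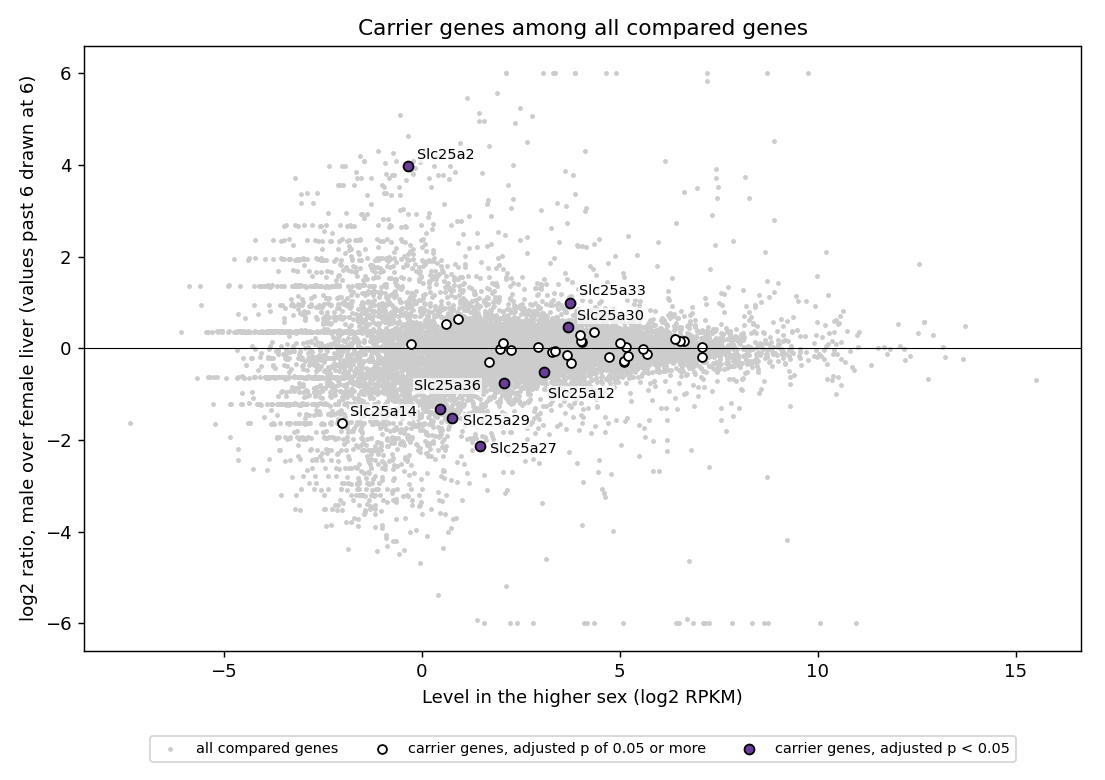
Normalized log2 ratio given by the authors, male over female (vertical axis), against the level in the higher sex (log2 RPKM, horizontal axis) for all compared genes (grey) and the carrier genes reported by name (circles, filled at an adjusted p under 0.05). The filled circles are the 8 called carriers, and the abundant carriers on the right lie near 0. The ratios of 3.97 (Slc25a2) and -2.14 (Slc25a27) belong to genes of low level. That of Slc25a2 is the distance of its male level from the floor in female liver.

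Carriers of amino acids, glutathione and acylcarnitines were the group with the largest summed level, 46.9% of the family's RPKM in male and 45.7% in female liver. Of its 14 members, all compared, 1 was male-higher, 2 were female-higher and 11 were not called. Of all compared genes, 7.21% were male-higher and 10.2% female-higher. Slc25a20 exchanges acylcarnitines for carnitine and so admits long-chain fatty acids to oxidation. Its log2 RPKM was 5.58 in male and 5.57 in female liver (log2 ratio -0.03, adjusted p = 0.899 in the authors' deposited table). About 956 male and 1243 female reads stand behind it, and the ratio of these reads had an exact 95% interval (Clopper-Pearson, counting error alone) from 0.925 to 1.10. Among other abundant carriers, the interval of male over female held 1 for Slc25a16 (0.923 to 1.07). It left out 1 for all others of the 10 most abundant members that have an interval, none of them called. These were Slc25a3 (0.849 to 0.947), Slc25a23 (1.09 to 1.19), Slc25a13, Slc25a47, Slc25a25, Slc25a22 and Slc25a5. Slc25a22, a glutamate carrier, had log2 RPKM of 5.05 in male and 5.22 in female liver. Its relative Slc25a18 lay at -2.94 and -2.01, with fewer than 10 reads implied in each sex, so that Slc25a22 supplied 255 times its RPKM in male and 150 times its RPKM in female liver.

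The pair of aspartate-glutamate carriers, which move aspartate out of the matrix for the urea cycle and the malate-aspartate shuttle, gave 1 call, for the rarer member. Citrin, Slc25a13, the form that dominates in liver, had a log2 ratio of 0.16 in the authors' deposited table (adjusted p = 0.393). Slc25a12, the form best known from brain and muscle, had log2 RPKM of 2.57 in male and 3.09 in female liver. It was 1.44-fold higher in females by the authors' deposited table (adjusted p = 0.0259). Citrin RPKM was 15.5 times that of Slc25a12 in male and 9.51 times in female liver. Whether the sex differences of the 2 genes differ from each other was not tested.

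A pair of carriers of ornithine and basic amino acids showed large differences at low levels. Slc25a2, an ornithine carrier and relative of the gene mutated in a disorder of the urea cycle, had log2 RPKM of -0.34 in male liver and -4.31, the floor, in female liver. About 11 reads were implied in male liver and 0 in female liver. With female liver set to 3 reads in all, the fold was 4.89. The exact interval of the implied reads allows a fold as low as 3.29. The adjusted p in the authors' deposited table was 0.00234. Slc25a29, a carrier of arginine, lysine and ornithine (12, 110064088 to 110074086, mm9), had log2 RPKM of -0.66 in male and 0.76 in female liver. The authors' deposited table puts it 2.86-fold higher in female liver (adjusted p = 0.00532), and about 13 male and 48 female reads allow 1.5-fold to 5.67-fold. Both genes stayed below log2 RPKM 1 in each sex.

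Glutathione import showed no called gene. Slc25a39 had a log2 ratio of 0.02 (adjusted p = 0.924), and its relative Slc25a40 one of -0.30 (adjusted p = 0.341), in the authors' deposited table. Per length, Slc25a39 was 51.2 times as abundant as Slc25a40 in male and 41.0 times in female liver. Slc25a44, which transports branched-chain amino acids, had log2 RPKM of 4.68 in male and 4.72 in female liver. Slc25a38, which imports glycine for heme synthesis, had 3.38 and 3.76. Slc25a48 had 3.99 and 3.63, and Slc25a45 had 3.25 and 3.36. None of these 4 genes was called, with adjusted p from 0.203 (Slc25a38) to 0.837 (Slc25a45) in the authors' deposited table.

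Carriers of phosphate, dicarboxylates and oxoacids gave no call among 6 compared members, where 17.4% of all compared genes were called. Slc25a3 was 1.13-fold higher in female liver by the ratio of the authors' deposited table (adjusted p = 0.347). Slc25a11, which exchanges oxoglutarate for malate, had log2 RPKM of 4.87 in male and 5.12 in female liver (adjusted p = 0.136). Slc25a10, the dicarboxylate carrier of malate and succinate, had 5.02 and 4.86, and Slc25a21, an oxodicarboxylate carrier, had 3.22 and 3.28. Slc25a34 and Slc25a35, whose substrates are less well known, stayed below 1 in both sexes. Together the 6 genes summed to 194 RPKM in male and 210 RPKM in female liver. The table gives adjusted p-values alone, so counts at an unadjusted p cannot be set beside this.

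Nucleotide and cofactor carriers had 14 members, 12 of them compared, with 1 gene higher in each sex. Of all compared genes, 7.21% were male-higher and 10.2% female-higher. The 2 called genes were both carriers of pyrimidine nucleotides, which supply the matrix with building blocks for mitochondrial DNA and RNA. Slc25a33 (4, 149118145 to 149148376, mm9) had log2 RPKM of 3.74 in male and 2.74 in female liver. By the authors' deposited table it was 1.99-fold higher in male liver (adjusted p = 2.24e-05), and about 282 male and 184 female reads allow 1.66-fold to 2.43-fold. Slc25a36 (9, 96978166 to 97011576, mm9) had log2 RPKM of 1.39 in male and 2.09 in female liver, and the authors' deposited table puts it 1.68-fold higher in female liver (adjusted p = 0.00802). Slc25a33 RPKM was therefore 5.10 times that of Slc25a36 in male and 1.56 times in female liver. No test of the difference between the ratios of the 2 genes was possible.

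The ADP/ATP carriers, which export ATP from the matrix, were not called. Slc25a5 had log2 RPKM of 4.91 in male and 5.12 in female liver (adjusted p = 0.178 in the authors' deposited table), and Slc25a4, the form of heart and muscle, had 2.17 and 2.24. Slc25a5 was 6.68 times as abundant per length as Slc25a4 in male and 7.33 times in female liver, although reads of Slc25a5 can be shared with processed copies of the gene. Slc25a31, the form of the male germ line, lay at the floor in male liver, at log2 RPKM -4.12, and at -3.51 in female liver. Among the ATP-Mg carriers Slc25a23 led, followed by Slc25a25 with 5.50 in male and 5.69 in female liver, while Slc25a24 lay at 0.61 and 0.12. Slc25a41 lay at the floor in male liver, at -3.78, and at -3.17 in female liver. Slc25a16 and Slc25a42, both linked to coenzyme A in the matrix, had log2 RPKM of 5.14 and 4.34 in male and of 5.15 and 3.97 in female liver. For Slc25a42 the log2 ratio in the authors' deposited table was 0.36 (adjusted p = 0.076). The carriers of S-adenosylmethionine (Slc25a26) and folate or FAD (Slc25a32) had log2 ratios of 0.12 and 0.02 in the authors' deposited table.

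The mitoferrins, which bring iron to heme and iron-sulfur cluster synthesis, were not called. Slc25a37, the form first known from red cell precursors, had log2 RPKM of 4.02 in male and 3.90 in female liver, and Slc25a28 had 3.57 and 3.68. Their adjusted p-values were 0.44 and 0.52 in the authors' deposited table. Slc25a46, an outer-membrane member linked to mitochondrial shape, had 4.04 and 3.87. Slc25a43, a member of unknown substrate on the X chromosome, had log2 RPKM of -1.06 in male liver, about 5 implied reads, and the floor of -4.03 in female liver (adjusted p = 0.128).

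Among the uncoupling proteins and their relatives, 3 of 4 compared genes were called, 1 male-higher and 2 female-higher, where 17.4% of all compared genes were called (7.21% male-higher and 10.2% female-higher); with 4 genes in the group, nothing is read from its share. Slc25a27, also called Ucp4 and best known from brain (17, 43778849 to 43803964, mm9), had log2 RPKM of -0.60 in male and 1.46 in female liver. With an adjusted p of 3.47e-08 and a difference of 4.40-fold in favour of female liver, it had the smallest adjusted p of the family in the authors' deposited table. About 21 male and 116 female reads allow 2.63-fold to 7.07-fold. Slc25a14, also called Ucp5, on the X chromosome, had log2 RPKM of -0.72 in male and 0.48 in female liver, about 11 and 35 reads. It was 2.5-fold higher in females by the authors' deposited table (adjusted p = 0.0141), and counting allows 1.21-fold to 5.30-fold. Slc25a30, a carrier first described in kidney, was the abundant member of the group, with log2 RPKM of 3.70 in male and 3.39 in female liver. Its fold in the authors' deposited table was 1.38 in favour of males (adjusted p = 0.0286). The plain difference of its 2 levels was smaller, 0.32 on the log2 scale against a normalized ratio of 0.46, and counting allows 1.10-fold to 1.41-fold. The 3 called genes thus do not share a direction.

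The 3 classical uncoupling proteins gave no call. Ucp2, which in liver is known from Kupffer cells, the resident macrophages, as well as from stressed hepatocytes, had log2 RPKM of 1.97 in male and 1.98 in female liver (log2 ratio -0.01). Of 7 macrophage markers, Clec4f, Marco and Vsig4 were female-higher and none was male-higher, beside 10.2% and 7.21% of all compared genes, and the summed level of the 7 was 145 RPKM in male and 181 RPKM in female liver. Ucp1, the heat-producing protein of brown fat, and Ucp3, of muscle and brown fat, had no implied read in either sex. Of 5 adipocyte markers, Cidea and Plin1 were at the floor in both sexes, and of 4 skeletal muscle markers, Acta1 and Myh4 were. The remaining adipocyte markers had log2 RPKM of -0.10 at most, and the remaining muscle markers -1.57 at most. An adjusted p of 0.026 stands beside Ucp1, Ucp3 and each other gene at the floor in both sexes, and was disregarded.

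**Figure D3:**
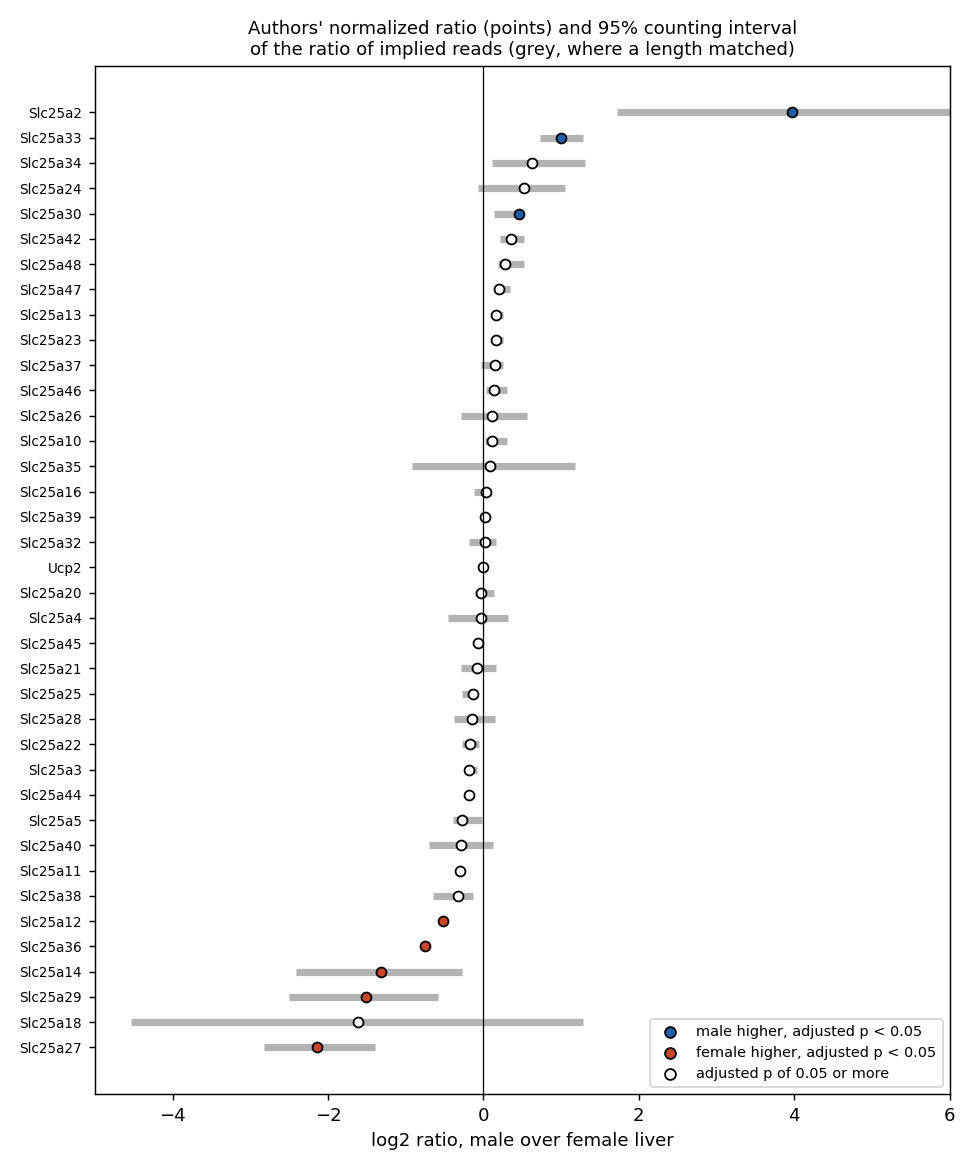
Normalized log2 ratio given by the authors, male over female (points, filled at an adjusted p under 0.05) for the compared carrier genes reported by name, with the 95% exact interval of the ratio of implied reads (grey bars, counting error only) for genes with a matching transcript length. Intervals are wide for Slc25a2, Slc25a14, Slc25a18, Slc25a27, Slc25a29 and Slc25a35, which have few reads in at least 1 sex, and the bar of Slc25a2 has no upper end.

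Several called carriers were genes of low level, and markers of hepatocytes and of other liver cells moved with sex as well. Of 5 hepatocyte markers, Alb was female-higher and Apoa1 and Apob were male-higher, beside 10.2% and 7.21% of all compared genes. Of 19 markers of macrophages, endothelial cells, stellate cells and bile duct cells, 7 were female-higher and none was male-higher, beside the background of 10.2% for female-higher genes. Their summed level was 291 RPKM in male and 365 RPKM in female liver. All of the 19 had a ratio between the sexes. Their part in the female-higher levels of Slc25a27, Slc25a29, Slc25a14, Slc25a36 and Slc25a12 was not tested, nor was that of the 1.31 times greater implied depth of female liver.

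Some members lie side by side, and neighbours differed widely in level. Slc25a47 and Slc25a29 are transcribed away from each other on chromosome 12, with 15.3 kb between them, and the RPKM of Slc25a47 was 133 times that of Slc25a29 in male and 42.1 times in female liver. Slc25a23 and Slc25a41 lie 2.06 kb apart on chromosome 17, with log2 RPKM of 6.62 and -3.78, the floor, in male liver. On the X chromosome, Slc25a5 and Slc25a43 are separated by 18.4 kb, with 4.91 and -1.06 in male liver, and on chromosome 7 Ucp2 and Ucp3 are separated by 6.93 kb. None of the 8 called members overlaps another entry of the table. Slc25a25, Slc25a46, Slc25a21, Slc25a26 and Slc25a35 each share bases with a gene on the opposite strand.

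Promoters from RefSeq (GRCm38.p6) were available for 34 of the carrier genes reported by name, matched by symbol. The 250 bases before the start were searched on both strands for 5 short motifs. A match is a description of letters, not a site, and a gene with several promoters counts as holding a motif if any of them does, here and in the shares set beside it. The GC box, GGGCGG, was found for 22 of the 34 genes (64.7%), against 63.2% of 7037 genes with log2 RPKM of at least 1 and 35.4% of all 27025 genes with such promoters. CCAAT was found for 15 genes (44.1%), against 41.2% and 37.5%. CCGGAAG, a core of ETS factors, was found for 4 genes (11.8%), against 16.3% and 7.83%. TTCNNNGAA, the spaced half-sites of STAT factors, was found for Slc25a36 and Ucp3 (5.88%), against 7.11% and 8.13%. TATAAA was found for Slc25a18 and Slc25a21, against 8.51% and 14.3%. The motifs do not overlap one another in the promoters shown here.

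Below are the 250 bases before the start of the pyrimidine nucleotide carriers, which were called in opposite directions, and of the divergent neighbours on chromosome 12, of which one is abundant and the other rare. Each is written 5′ to 3′ on the strand of its gene, with matches of the 5 motifs in capitals.
Slc25a33, chr4:149774268-149774517, minus strand, GRCm38.p6: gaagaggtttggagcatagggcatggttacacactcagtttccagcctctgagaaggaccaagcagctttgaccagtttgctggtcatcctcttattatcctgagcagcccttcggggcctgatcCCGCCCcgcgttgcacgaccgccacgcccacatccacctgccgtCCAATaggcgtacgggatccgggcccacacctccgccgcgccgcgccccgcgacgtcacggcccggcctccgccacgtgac
Slc25a36, chr9:97111042-97111291, minus strand, GRCm38.p6: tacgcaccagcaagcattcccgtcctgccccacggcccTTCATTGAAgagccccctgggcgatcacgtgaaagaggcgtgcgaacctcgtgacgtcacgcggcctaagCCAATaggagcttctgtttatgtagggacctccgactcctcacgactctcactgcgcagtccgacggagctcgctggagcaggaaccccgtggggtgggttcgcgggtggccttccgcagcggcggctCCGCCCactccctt
Slc25a47, chr12:108850879-108851128, plus strand, GRCm38.p6: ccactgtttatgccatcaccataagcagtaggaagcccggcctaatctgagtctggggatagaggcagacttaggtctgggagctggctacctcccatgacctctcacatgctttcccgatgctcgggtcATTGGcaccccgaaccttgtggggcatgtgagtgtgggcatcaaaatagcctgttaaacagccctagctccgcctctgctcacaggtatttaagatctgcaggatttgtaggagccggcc
Slc25a29, chr12:108835877-108836126, minus strand, GRCm38.p6: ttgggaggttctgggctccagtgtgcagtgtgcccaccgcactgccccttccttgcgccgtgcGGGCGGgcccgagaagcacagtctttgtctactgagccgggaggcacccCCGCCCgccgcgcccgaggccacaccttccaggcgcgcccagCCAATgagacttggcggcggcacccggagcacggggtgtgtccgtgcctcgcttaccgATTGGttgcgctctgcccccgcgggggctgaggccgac
Slc25a33, Slc25a36 and Slc25a29 hold 23, 24 and 25 CpG in these bases and Slc25a47 holds 6, where the median is 10.5 over 42 promoters of carrier genes, 6 over all promoters and 15 over those of genes with log2 RPKM of at least 1. Slc25a36 has the 1 STAT-type match among the 4, and Slc25a47 is the 1 without a GC box.

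Genes that work beside the carriers were described from 7 lists of 58 genes, 57 of them found and compared. Of these, 10 were called (17.5%), 4 male-higher and 6 female-higher, beside the same background of 17.4%. The mitochondrial pyruvate carrier, which belongs to another protein family, was female-higher in both of its subunits. Brp44 (Mpc2) had log2 RPKM of 7.25 in male and 7.93 in female liver, and Brp44l (Mpc1) had 4.87 and 5.45. The authors' deposited table puts them 1.64-fold (adjusted p = 0.000189) and 1.54-fold (adjusted p = 0.00381) higher in females. In the same list of 13 inner-membrane transporters, Ccdc109a (Mcu), the pore of the calcium uniporter, was 1.38-fold higher in females (adjusted p = 0.0295), and Abcb10, an exporter linked to heme synthesis, 1.76-fold higher in males (adjusted p = 7.34e-05), by the authors' deposited table. The list thus held 1 male-higher and 3 female-higher genes, beside 7.21% and 10.2% of all compared genes.

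Enzymes of the malate-aspartate shuttle, which depend on Slc25a13, Slc25a12 and Slc25a11, had 1 call, female-higher, among 6 listed shuttle genes. Of all compared genes, 17.4% were called and 10.2% were female-higher. Got1, the cytosolic aspartate aminotransferase, had log2 RPKM of 6.44 in male and 7.34 in female liver, a 1.91-fold difference in the authors' deposited table (adjusted p = 9.51e-07). Mdh1 had 8.14 and 8.23, and Gpd1, of the glycerol phosphate shuttle, 7.09 and 6.73 (adjusted p = 0.0658). None of 7 carnitine shuttle genes was called, among them Crot at 8.02 in male and 8.30 in female liver and Cpt1a at 5.93 and 5.89. None of 3 porins, the outer-membrane channels, was called either, with Vdac1 at 5.74 and 5.95 and Vdac2 at 5.31 and 5.27.

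In the import machinery that inserts carriers into the inner membrane, 2 of 12 genes were male-higher, where 17.4% of all compared genes were called and 7.21% were male-higher, and neither passed an adjusted p under 0.01. Timm9, an intermembrane-space chaperone of carrier precursors, had log2 RPKM of 5.46 in male and 5.04 in female liver, and Agk, a lipid kinase that is also a subunit of the carrier translocase, had 0.75 and -0.45. They were 1.42-fold (adjusted p = 0.0132) and 2.25-fold (adjusted p = 0.0122) higher in males by the authors' deposited table. Among 12 transcription factors and coactivators of mitochondrial genes, Nrf1 (1.59-fold, adjusted p = 0.00419) and Pprc1 (1.48-fold, adjusted p = 0.0368) were female-higher in the authors' deposited table. Ppara, the fatty acid receptor (1.39-fold, adjusted p = 0.0141), was male-higher there. Of all compared genes, 10.2% were female-higher and 7.21% male-higher, and with 12 genes nothing is read from these counts. Of 4 family members listed under other symbols, none was called. Mtch2 had log2 RPKM of 5.34 in male and 5.41 in female liver, and Mtch1 had 4.39 and 4.65. Mcart1 (Slc25a51) had 1.64 and 2.25, and Mcart6 (Slc25a53) had 0.358 and 0.905. All 4 log2 ratios in the authors' deposited table were negative, with -1.22 for Mcart1, -0.51 for Mcart6 and a median of -0.40. The adjusted p there was 0.165 for Mtch1, 0.214 for Mcart6, 0.613 for Mtch2 and larger still for Mcart1. Reads were not implied for these 4 genes, so their counting error is not given and nothing is read from the shared sign.

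**Figure D4:**
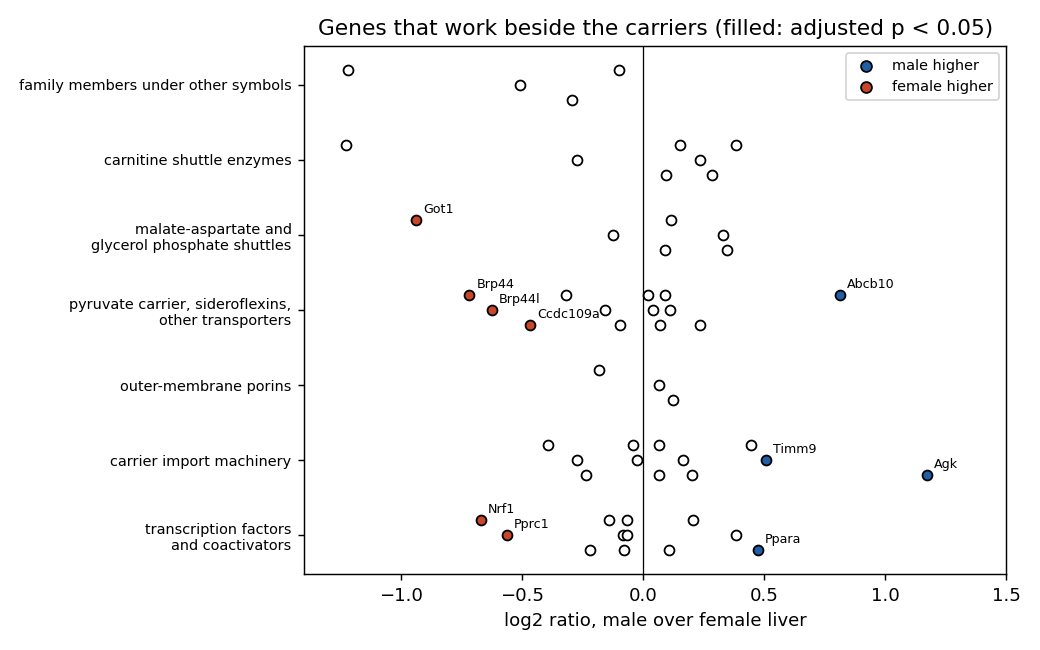
Normalized log2 ratio given by the authors, male over female (horizontal axis), for 57 genes that work beside the carriers, by list (rows; height within a row only separates points). Filled points are the 10 genes with an adjusted p under 0.05, with Got1, Brp44, Nrf1, Brp44l, Pprc1 and Ccdc109a on the female side and Agk, Abcb10, Timm9 and Ppara on the male side.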

How the data were processed

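Poly-A-enriched, strand-specific RNA of 4 liver pools was sequenced, per the labels' protocols. Bowtie, edgeR and mm9 are named in the submitters' processing notes, without role or version. The counting of reads and its use of strand are not given in the sources used here. In the deposited table stand, per the file headers, the authors' log2 RPKM per sex, their normalized log2 ratio of male over female, the linear ratio, the signed fold as a score, and an adjusted p-value. Both pools of a sex are merged in it, so the planned edgeR test could not be run and no pool could be left out. Genes were called at the authors' adjusted p under 0.05.

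Genes with a normalized ratio of 1 whose 2 levels differ by 0.389 on the log2 scale (within 0.0015) were taken to lie at the floor (6590). A further 1460 had a ratio of 1 with 1 sex at the floor and the level of the other a whole number of times its own floor (tolerance 0.3%), and so no usable ratio. Another 15 had neither a level nor a ratio. Depth came from the levels of 4668 floor genes with a transcript length in GENCODE vM21, matched by RefSeq accession and used for length alone; 74.2% fitted the median depth within 2%. Implied reads are approximate. They were available for 35 carrier genes and gave 95% exact intervals for 32 of the compared carriers, scaled by the implied depth. Intervals and the floor of 3 reads cover counting error only. The interval was tested on simulated data. Coordinates are those of the table, with a 1-based start.

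The members and lists were chosen with earlier results of these data known. Values are given for called members, the 10 highest levels, the 2 highest of each group, the uncoupling proteins, and up to 4 called or the 2 most abundant genes of each list. Other members, and Mcart1 and Mcart6 of the lists, were named after their values were seen. The 5 motifs and the promoters shown were also chosen with the values known. 1 member is counted but not reported here by name. The planned protein comparison was not made. Python 3.11.15, pandas 2.3.3, numpy 2.4.6, scipy 1.17.1 and matplotlib 3.10.9 were used.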

Additional observations from a re-analysis of the deposited data

How the results depend on the processing

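At an adjusted p under 0.01, 5 carrier genes were called (2 male-higher and 3 female-higher); Slc25a12, Slc25a14 and Slc25a30 were lost. Among liver-expressed members alone (log2 RPKM 1 or more), 5 were called (2 and 3). The adjusted p-values were the same, and Slc25a2, Slc25a29 and Slc25a14 dropped out because they lay below that level in both sexes. With a difference of at least 1.5-fold as well, 6 were called. Exact intervals of implied reads excluded equal levels for 19 of the 32 compared carriers that have one, 11 male-higher and 8 female-higher. The intervals are not adjusted for multiple tests, leave out differences between mice and pools, use another scaling and cover fewer genes. The cause of the change in the count was not tested. No share over all compared genes stands beside this count, so nothing about the carriers is read from it. The median log2 ratio of the carriers, -0.01, was -0.01 by the plain difference of levels and 0.018 after centring on all compared genes, so its sign carries no information. Over 106 alternative values for 38 compared genes, 7 changed sign. They were those of Slc25a20 (0.011 by the plain difference and 0.0107 by implied reads), Slc25a16 (-0.008 and -0.0083), Slc25a32 (-0.01 and -0.0107) and Ucp2 (0.018 after centring). None was of a called gene, but the alternatives rescale the same 2 levels of each gene. A kept sign is therefore no independent support for a call. At an adjusted p under 0.01, the calls in 2 of 7 partner lists fell, carrier import to 0 and transcription factors to 1. No paired analysis was possible because the table does not separate the pools, and leaving out a pool was not run for the same reason.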
